A study of Mus musculus with 5 samples.

Results

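The enzymes of mitochondrial fatty acid oxidation and the regulators of their genes were followed in the atria of newborn mice in which Nkx2-5, the gene of a cardiac homeobox transcription factor, was deleted by Cre. The 42 genes were taken by symbol from the deposited table of 40624 genes, and each symbol matched 1 row. Of these, 41 had enough reads to be tested and Ucp3 did not.

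Atria of C57BL/6 mice were collected at postnatal day 1 (P1), and polyA RNA was sequenced in 5 libraries. The 3 control libraries (replicates 2, 4 and 6) carried SLN-Cre and 1 floxed allele (Nkx2-5-flox/+), and the 2 mutant libraries (replicates 5 and 7) carried SLN-Cre and Nkx2-5-flox/flox. Cre was thus present in both groups, so the controls were Cre carriers with a single floxed copy and not wild-type mice. The Sln (sarcolipin) gene that names the Cre driver is expressed in atrial myocytes, and the libraries were made from whole atria, which also hold other cells. In such bulk tissue, fewer cells of a type and less RNA per cell cannot be told apart. Whether each library is a different animal is not in the labels, and the p-values therefore speak only of the spread among these 5 samples.

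Long-chain fatty acids are joined to coenzyme A by acyl-CoA synthetases, carried into mitochondria by the carnitine shuttle, and shortened there by repeated rounds of dehydrogenation, hydration, a second dehydrogenation and thiolysis. The heart changes its fuel around birth, from mostly glucose and lactate towards fatty acids. The nuclear receptors PPARα and the estrogen-related receptors, with the coactivators PGC-1α and PGC-1β, drive transcription of the enzyme genes in heart muscle.

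Read counts summed over genes ranged from 58501214 to 60899334 in the controls, with 78841494 in mutant 5 and 69648013 in mutant 7. The mutant libraries differed from each other more than any control pair did, with a chi-square per degree of freedom over genes of 85.4 against 20.3 to 33.9. Control 6 held more RNA of the ventricular light chain Myl2 (95.9 CPM, counts scaled to a common library total) than the other 4 libraries (8.26 to 22.3 CPM). Nkx2-5 stood at 76.8, 72.1 and 71.3 CPM in the controls and at 5.79 and 5.21 CPM in the mutants, a log2 fold change of -3.74 ± 0.09 (SE; edgeR adjusted p = 7.0e-07), which matched the labels. The atrial light chains Myl7 and Myl4 were abundant in every library (7767 to 11075 CPM).

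Of the 41 tested members, 4 rose in mutant atria and 0 fell in the quasi-likelihood test of edgeR, adjusted by Benjamini-Hochberg over 17835 genes. They were the carnitine palmitoyltransferase Cpt1a (ENSMUSG00000024900), the thiolase Acaa2 (ENSMUSG00000036880), the isomerase Ech1 (ENSMUSG00000053898) and the coactivator Ppargc1b (ENSMUSG00000033871). In the deposited table (mm9), the positions headed TSS and TES are chr19:3349202-3383841 for Cpt1a and chr7:29610380-29617127 for Ech1, both on the plus strand. Acaa2 and Ppargc1b lie on chromosome 18. Over all tested genes 6.58% were called, 3.02% higher and 3.57% lower, beside 9.76% of the members higher. At an unadjusted p under 0.05 there were 11 members on the higher side and 3 on the lower side, where 10.5% and 10.2% of all tested genes lay. DESeq2 called 7 members higher and 2 lower, beside 5.39% and 6.02% of all genes it tested. With limma-voom the counts were 4 and 0, beside 2.76% and 3.36% of all genes.

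The members' log2 fold changes of mutant over control ran from -0.98 to 0.64, with a median of 0.13 beside 0.01 for all tested genes, and 27 of 41 (65.9%) were above 0 beside 51.3% of all tested genes. Both mutant libraries lay above all 3 controls for 16 members (39.0%), where 18.6% of all tested genes did so. Both lay below all controls for 5 members (12.2%), where 19.2% of all tested genes did so. The groups overlapped for the other 20.

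**Figure D1:**
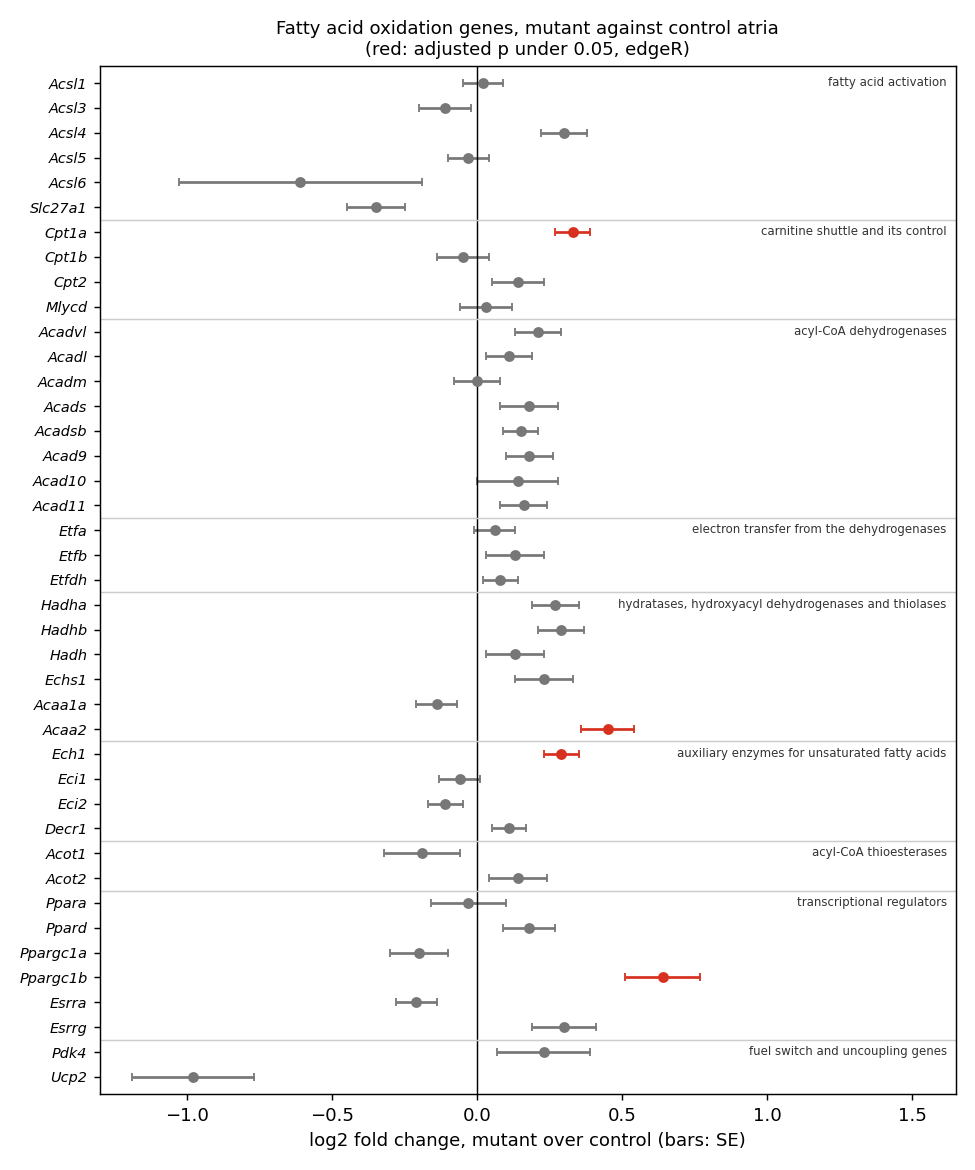
Log2 fold change of mutant over control for each of the 41 tested members (x axis, no unit), grouped by role from top to bottom; bars are standard errors and red marks an edgeR adjusted p under 0.05. Cpt1a, Acaa2, Ech1 and Ppargc1b are red, and Ucp2 is farthest to the left at -0.98.

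As a set, the members stood farther above the controls in mutant 5 than in mutant 7. Both mutants still lay above all controls for 16 members. Mutant 5 lay above mutant 7 for 34 of 41 members (82.9%), where it did so for 51.7% of all tested genes. That count includes members lower in both mutants, such as Ucp2 and Esrra. Against the control mean, the members' median log2 difference was 0.16 in mutant 5 and -0.00 in mutant 7, while that of all genes was -0.01 and -0.00. Without mutant 5 the members' median log2 fold change was -0.00, with 20 of 41 above 0. Without mutant 7 it was 0.15, with 30 of 41 above 0.

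The called genes did not share this pattern in full. Cpt1a, Ech1 and Acaa2 were higher in mutant 5, by 0.37, 0.32 and 0.54 on the log2 scale, and also in mutant 7, by 0.30, 0.25 and 0.35. Ppargc1b was farther from the control mean in mutant 7 (0.74) than in mutant 5 (0.53). With a mutant library left out, only 1 mutant library remained. The adjusted p of such a fit rests on the spread of the controls and does not measure spread between mutants. Without mutant 5 the log2 fold changes of Cpt1a, Ech1, Acaa2 and Ppargc1b were 0.30, 0.25, 0.35 and 0.74. Without mutant 7 they were 0.36, 0.32, 0.54 and 0.52.

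**Figure D2:**
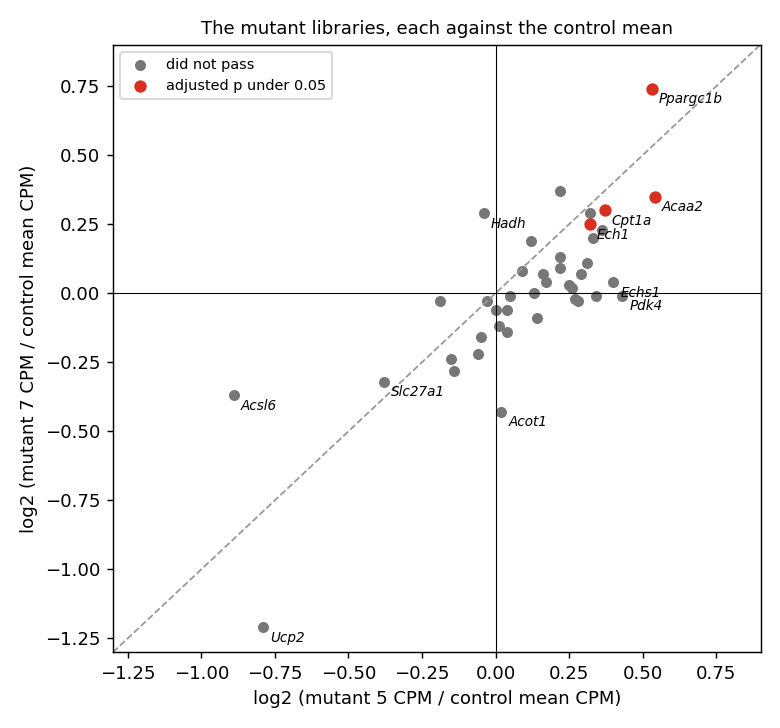
Log2 ratio of mutant 5 (x axis) and of mutant 7 (y axis) to the mean control CPM, one point per tested member; the dashed line marks equal values and red marks an adjusted p under 0.05. Of 41 points, 34 lie below the dashed line, where mutant 5 is the higher library, while Ppargc1b and Hadh lie above it.

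The first step is fatty acid uptake and activation. None of its 6 genes passed the test, and their median log2 fold change was -0.07. Acsl1, the main long-chain acyl-CoA synthetase of heart, stood at 137, 119 and 123 CPM in the controls and at 130.5 and 126 CPM in the mutants, with overlapping groups (log2 fold change 0.02 ± 0.07, edgeR adjusted p = 0.92). Acsl4, which prefers arachidonic acid, stood at 30.6, 30.2 and 31.9 CPM in the controls and at 36.0 and 39.9 CPM in the mutants. Both mutants lay above all controls there, but the adjusted p was 0.062 (log2 fold change 0.30 ± 0.08). It passed with DESeq2 (0.016) and without a filter on low counts (0.044). Its log2 fold change was 0.37 without mutant 5 and 0.22 without mutant 7.

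Slc27a1 encodes the fatty acid transport protein FATP1. It stood at 30.3, 25 and 28 CPM in the controls and at 21.4 and 22.3 CPM in the mutants, both below every control. Its log2 fold change of -0.35 ± 0.10 had an edgeR adjusted p of 0.072, and it passed with DESeq2 (0.029), without a filter (0.038) and with library totals alone (0.048). Acsl3 and Acsl5 had log2 fold changes of -0.11 and -0.03. Acsl6, known best from brain, was near the floor in all libraries, at 0.308 to 0.797 CPM.

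Entry into mitochondria runs through carnitine palmitoyltransferase 1, which malonyl-CoA inhibits. Of the 4 genes of this step 1 rose (25%, beside 3.02% of all tested genes). Cpt1a, the form that predominates in liver and in the heart before and around birth, stood at 53.8, 52.5 and 52.3 CPM in the controls and at 68.1 and 65.0 CPM in the mutants. The controls lay within 1.5 CPM of one another and both mutants above them, for a log2 fold change of 0.33 ± 0.06 (edgeR adjusted p = 0.017). Leaving out any 1 control took the adjusted p to between 0.061 and 0.091, with the log2 fold change between 0.32 and 0.34.

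Cpt1b, the muscle form, did not pass the test. It stood at 21.2, 19.0 and 19.7 CPM in the controls and at 20.5 and 18.1 CPM in the mutants, with overlapping groups and a log2 fold change of -0.05 ± 0.09 (edgeR adjusted p = 0.82). Per kb of deposited exon length, Cpt1b ran at 0.423, 0.389 and 0.405 of the Cpt1a level in the controls. The ratio was 0.323 and 0.299 in the mutants, below every control. In GENCODE vM21, 81.4% of the exonic bases of Cpt1b are shared with a gene model on the same strand, Gm44502, which was not analysed here.

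Cpt2, which returns the acyl group to coenzyme A inside the mitochondrion, stood at 78.4, 68.0 and 70.6 CPM in the controls and at 85.9 and 73.7 CPM in the mutants. The groups overlapped, and the log2 fold change was 0.14 ± 0.09 (edgeR adjusted p = 0.42). Mlycd, which breaks down malonyl-CoA, had a log2 fold change of 0.03 ± 0.09.

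The window before the Cpt1a start site is shown because Cpt1a is called and holds 1 of the nuclear receptor half-sites searched below. It runs over the 250 bases before the start in RefSeq on GRCm38.p6, chr19:3323051-3323300, plus strand. Capitals mark the half-site AGGTCA read on the other strand (TGACCT), which begins 94 bases before the start.

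Cpt1a: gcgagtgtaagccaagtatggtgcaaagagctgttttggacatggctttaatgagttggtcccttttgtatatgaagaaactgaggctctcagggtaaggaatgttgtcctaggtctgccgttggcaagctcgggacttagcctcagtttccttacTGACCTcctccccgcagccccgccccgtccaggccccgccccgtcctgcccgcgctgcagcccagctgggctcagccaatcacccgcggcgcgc

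In the dehydrogenation step, 8 acyl-CoA dehydrogenases were measured and none passed the test. Their log2 fold changes ran from -0.00 to 0.21 with a median of 0.15, and 7 of 8 were above 0 (87.5%, beside 51.3% of all tested genes). Acadvl, specific for very long chains, stood at 121, 119 and 106 CPM in the controls and at 143 and 124 CPM in the mutants. Both mutants lay above all controls, by a log2 fold change of 0.21 ± 0.08 (edgeR adjusted p = 0.19). In GENCODE vM21, 42.9% of its exonic bases lie opposite exons of Dvl2, and no source used here says whether counting was by strand.

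Acadm, the medium-chain enzyme and a common marker of PPARα activity, stood at 297, 270.5 and 266 CPM in the controls and at 286 and 267 CPM in the mutants. The groups overlapped entirely, with a log2 fold change of -0.00 ± 0.08 (edgeR adjusted p = 0.98). Acads, the short-chain enzyme, was 112, 111 and 111 CPM in the controls, 141 CPM in mutant 5 and 111 CPM in mutant 7. Only mutant 5 departed from the controls (log2 fold change 0.18 ± 0.10, edgeR adjusted p = 0.34). The log2 fold change was 0.34 without mutant 7 and -0.01 without mutant 5. Acadl, which acts on long chains, stood at 693 to 726 CPM in the controls and at 805 and 734 CPM in the mutants (log2 fold change 0.11 ± 0.08). Acadsb, Acad9, Acad10 and Acad11 had log2 fold changes of 0.14 to 0.18.

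The electrons of these enzymes pass through the flavoprotein ETF (Etfa, Etfb) and its dehydrogenase (Etfdh) to ubiquinone. None of the 3 genes passed the test, with log2 fold changes of 0.06, 0.13 and 0.08. In GENCODE vM21, 53% of the exonic bases of Etfb are shared with a gene model on the same strand, Gm45233, which was not analysed here. Summed, they stood at 701 to 737 CPM in the controls and at 815 and 731 CPM in mutants 5 and 7, so mutant 7 lay among the controls.

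The later steps of the cycle held the most abundant member. Of 6 hydratases, hydroxyacyl dehydrogenases and thiolases, 1 rose (16.7%, beside 3.02% of all tested genes) and 0 fell. Log2 fold changes were positive for 5 (83.3%, beside 51.3% of all tested genes), with a median of 0.25. In this step 3 genes had an unadjusted p under 0.05, all on the higher side, where 10.5% of all tested genes lay. Acaa2, the mitochondrial 3-ketoacyl-CoA thiolase, stood at 833, 769 and 715 CPM in the controls and at 1126 and 987 CPM in the mutants. Both mutants lay above all controls, for a log2 fold change of 0.45 ± 0.09 (edgeR adjusted p = 0.024). The adjusted p was 0.10 without control 4, 0.075 without control 6 and 0.054 without mutant 5.

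Hadha and Hadhb encode the α and β subunits of the trifunctional protein, which carries out the later reactions on long chains at the inner membrane. Hadha stood at 532, 493 and 506 CPM in the controls and at 643 and 587 CPM in the mutants. Hadhb stood at 351, 349 and 319 CPM in the controls and at 435 and 398 CPM in the mutants. For both subunits the mutants lay above all controls.

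Their log2 fold changes were 0.27 ± 0.08 for Hadha and 0.29 ± 0.08 for Hadhb, with edgeR adjusted p of 0.077 and 0.063. Both passed with DESeq2 (0.011 and 0.0081). Without mutant 7 their log2 fold changes were 0.33 and 0.35, and without mutant 5 they were 0.20 and 0.23. The ratio of Hadhb to Hadha per kb lay at 0.486 to 0.545 in the controls and at 0.520 and 0.521 in the mutants, inside the control range. Hadhb shares 18.1% of its 50-base stretches with Gm13910, to which some of its reads may have been assigned or the reverse. Gm13910 itself stood at 45.0 to 49.2 CPM in the controls and at 61.5 and 55.3 CPM in the mutants (log2 fold change 0.31 ± 0.08, edgeR adjusted p = 0.05 by rounding, above the threshold).

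These subunit genes lie head to head, with 273 bases between their RefSeq start sites on GRCm38.p6. The 250 bases before the Hadhb start, chr5:30155003-30155252, plus strand, are shown because both subunits lay above all controls by similar amounts. Capitals mark the 228 bases that also lie in the window taken for Hadha, whose gene runs on the minus strand.

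Hadhb: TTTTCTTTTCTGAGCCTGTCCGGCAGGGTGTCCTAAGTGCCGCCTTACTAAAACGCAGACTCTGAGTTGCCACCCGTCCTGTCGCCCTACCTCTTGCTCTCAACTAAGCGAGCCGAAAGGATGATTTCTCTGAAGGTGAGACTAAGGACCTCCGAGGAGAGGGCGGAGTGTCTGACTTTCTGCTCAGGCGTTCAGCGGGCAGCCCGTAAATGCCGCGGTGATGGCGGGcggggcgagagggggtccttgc

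Echs1, the short-chain enoyl-CoA hydratase, stood at 277, 261 and 268 CPM in the controls and at 354 and 276 CPM in the mutants. Mutant 5 was far above the controls and mutant 7 within their range (log2 fold change 0.23 ± 0.10, edgeR adjusted p = 0.25). Hadh, the short-chain hydroxyacyl dehydrogenase, showed the reverse: 178, 175 and 182 CPM in the controls, 173 CPM in mutant 5 and 219 CPM in mutant 7. Acaa1a, a peroxisomal thiolase, had a log2 fold change of -0.14 ± 0.07, with both mutants (73.7 and 65.9 CPM) below all controls (74.1 to 79.5 CPM).

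Double bonds of unsaturated fatty acids need further enzymes, and 1 of 4 rose (25%, beside 3.02% of all tested genes). Ech1, a dienoyl-CoA isomerase, stood at 130.5, 135 and 137 CPM in the controls and at 168 and 159.5 CPM in the mutants. The mutants lay above all controls, for a log2 fold change of 0.29 ± 0.06 (edgeR adjusted p = 0.027). Without any 1 control the adjusted p was 0.074 to 0.16. Decr1, the dienoyl-CoA reductase, had a log2 fold change of 0.11 ± 0.06 with both mutants above the controls, and the isomerases Eci1 and Eci2 had -0.06 and -0.11, so the values of this step went both ways.

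Acot1 and Acot2, which release free fatty acids from acyl-CoA in the cytosol and in mitochondria, did not pass. Acot1 stood at 17.0, 16.1 and 18.0 CPM in the controls and at 17.2 and 12.6 CPM in the mutants (log2 fold change -0.19 ± 0.13, edgeR adjusted p = 0.48). Acot2 stood at 26.4, 26.3 and 28.0 CPM in the controls and at 32.7 and 26.4 CPM in the mutants (0.14 ± 0.10, adjusted p = 0.51). Each overlapped between the groups, while the ratio of Acot2 to Acot1 per kb was 1.74, 1.82 and 1.73 among controls, with 2.12 and 2.34 in mutants 5 and 7. Acot2 shares 24.5% of its 50-base stretches with Acot1, so the authors' counting could have split or lost reads between them.

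**Figure D3:**
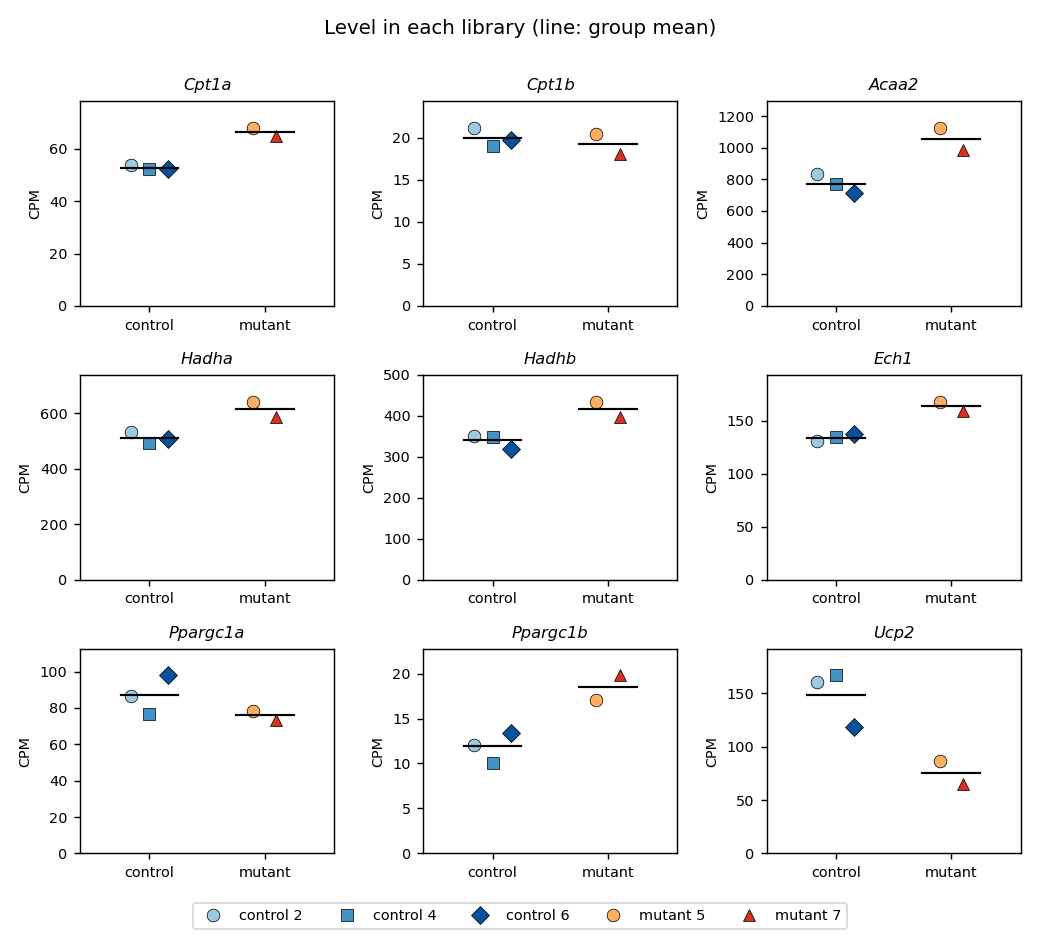
CPM of 9 members in each library (y axes start at 0), controls on the left and mutants on the right of each panel; the symbol gives the library and the line the group mean. Mutants lie above all controls for Cpt1a, Acaa2, Hadha, Hadhb, Ech1 and Ppargc1b, below them for Ucp2, and overlap them for Cpt1b and Ppargc1a.

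Of the 6 regulators 1 rose (16.7%, beside 3.02% of all tested genes), and the values of the others lay on both sides of 0. Ppargc1b, which encodes the coactivator PGC-1β, stood at 12.0, 10.1 and 13.4 CPM in the controls and at 17.1 and 19.8 CPM in the mutants. Both mutants lay above all controls, for a log2 fold change of 0.64 ± 0.13 (edgeR adjusted p = 0.025), the highest among the members. The adjusted p was 0.083 without control 2, 0.076 without control 4 and 0.11 without mutant 7.

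Ppargc1a, which encodes the better known coactivator PGC-1α, stood at 86.8, 76.6 and 97.9 CPM in the controls and at 78.3 and 73.6 CPM in the mutants. The groups overlapped, with a log2 fold change of -0.20 ± 0.10 (edgeR adjusted p = 0.32). Per kb, Ppargc1b ran at 0.234, 0.223 and 0.232 of Ppargc1a among controls and at 0.369 and 0.455 in mutants 5 and 7. The 3 control ratios lay close together although both genes varied among the controls, and both mutant ratios lay above them.

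The estrogen-related receptors ERRα and ERRγ also differed in sign. Esrra stood at 101, 99.7 and 94.3 CPM in the controls and at 89.3 and 81.1 CPM in the mutants, below every control (log2 fold change -0.21 ± 0.07, edgeR adjusted p = 0.12). The log2 fold change of Esrra was -0.28 without mutant 5 and -0.14 without mutant 7. Esrrg stood at 17.0, 15.0 and 19.0 CPM in the controls and at 21.2 and 20.7 CPM in the mutants, above every control (0.30 ± 0.11, adjusted p = 0.14). Their ratio per kb, Esrrg over Esrra, was 0.0413, 0.0368 and 0.0494 among controls, with 0.0583 and 0.0626 in mutants 5 and 7.

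Ppara, the gene of the main fatty acid sensor among them, stood at 12.8, 10.3 and 13.5 CPM in the controls and at 11.9 CPM in both mutants, inside the control range (log2 fold change -0.03 ± 0.13, edgeR adjusted p = 0.92). Ppard, of the related receptor PPARδ, had 0.18 ± 0.09, with the mutants at 30.7 and 28.8 CPM above the controls at 24.2 to 28.3 CPM.

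**Figure D4:**
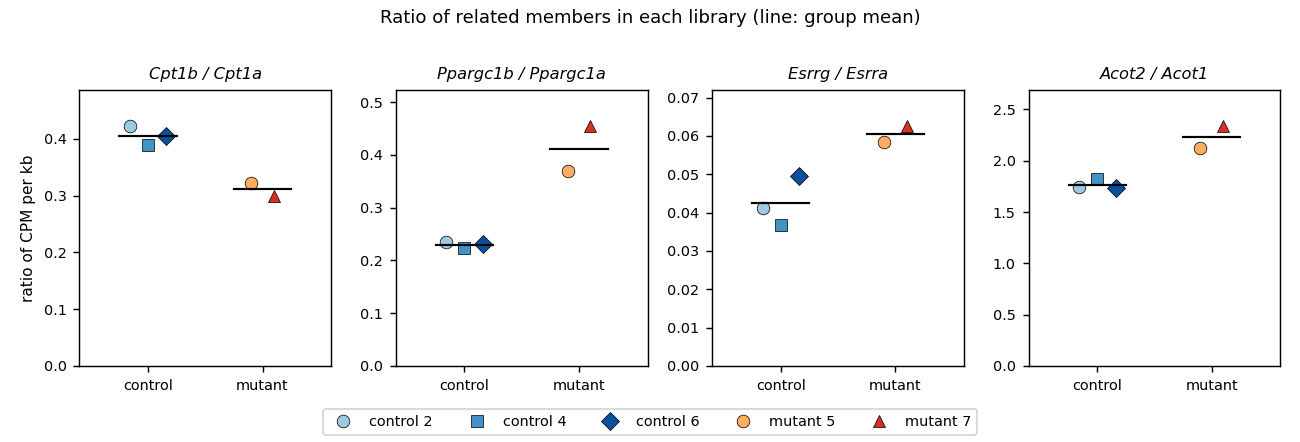
Ratio of the level per kb of related members (y axes, no unit, from 0) in each library, with the group mean as a line. Cpt1b over Cpt1a is lower in both mutants than in all controls (0.323 and 0.299 against 0.389 to 0.423), and the other 3 ratios are higher; these ratios were not tested.

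Genes of fuel choice and uncoupling completed the set. Pdk4, the kinase that shuts off pyruvate dehydrogenase when fatty acids are burned, stood at 78.2, 61.4 and 68.6 CPM in the controls, 93.8 CPM in mutant 5 and 69.0 CPM in mutant 7. Only mutant 5 was above the controls (log2 fold change 0.23 ± 0.16, edgeR adjusted p = 0.49).

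Ucp2 encodes an inner-membrane carrier of the uncoupling protein family and had the lowest log2 fold change of the members. Its deposited TSS and TES positions are chr7:107645332-107647859 (mm9, plus strand). They span less than the deposited exon length of 8088 bases, so they do not enclose all exons behind that length. Ucp2 stood at 161, 167 and 119 CPM in the controls and at 86.6 and 64.7 CPM in the mutants. Both mutants lay below every control, for a log2 fold change of -0.98 ± 0.21, but the edgeR adjusted p was 0.064 and the gene was not called. Control 6 was the lowest control, and without it the values were -1.12 and 0.014. With another library left out the adjusted p was 0.10 to 0.26, and with no filter it was 0.20. DESeq2 gave an adjusted p of 3.4e-07, limma-voom 0.055, and the adjusted p in the authors' deposited table was 0.020. In GENCODE vM21, 305 exonic bases of Ucp2 (4.36%) lie opposite exons of Dnajb13.

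Ucp3, the muscle homologue, had 2, 1 and 2 reads in controls 2, 4 and 6 and 0 in each mutant, and was not detectable beyond that at this depth. No fold is given, since every library lay under 3 counts.

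The authors' deposited table, at its own adjusted p under 0.05, has 3 members higher and 1 lower. The share of all its genes under that threshold was not computed, so these counts have no background beside them. The higher members in the authors' deposited table were Cpt1a (0.043), Acaa2 (5.2e-04) and Ppargc1b (0.011). Ech1 had an adjusted p of 0.081 in the authors' deposited table.

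Levels of different members can be set beside each other only per length, here as CPM per kb of the exon length in the deposited table. In the controls Acaa2 stood highest at 509.6 ± 38.9 CPM per kb (SD, n = 3), followed by Acadl at 350.3 ± 8.84 and Etfb at 155 ± 9.09. Etfa followed at 113 ± 2.16 and Hadha at 77.0 ± 2.99. Acadm (67.0 ± 4.01) and Eci1 (64.0 ± 3.56) did not differ beyond their spread, nor did Acads (40.0 ± 0.201) and Hadhb (39.5 ± 2.06).

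Among the regulators, Esrra was at 28.2 ± 0.985 CPM per kb and Ppargc1a at 12.1 ± 1.48, ahead of Ppard at 4.14 ± 0.320, Ppargc1b at 2.78 ± 0.391, Ppara at 2.01 ± 0.277 and Esrrg at 1.19 ± 0.141. Acsl6 (0.0324) and Ucp3 (0.0049) were lowest. The deposited length joins all annotated exons, and for 24 of 42 members it was over 1.5 times the longest coding transcript of GENCODE vM21, which lowers the level per kb of those genes. The order depends on this choice. With the longest coding transcript as the length, an alternative chosen after seeing the data, Acaa2, Acadl and Etfb remained the first 3 (509, 373 and 293 CPM per kb), but Echs1 (173), Hadhb (166) and Acadm (136) passed Hadha (127). Among the regulators Ppara (3.57) then passed Ppargc1b (3.25).

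**Figure D5:**
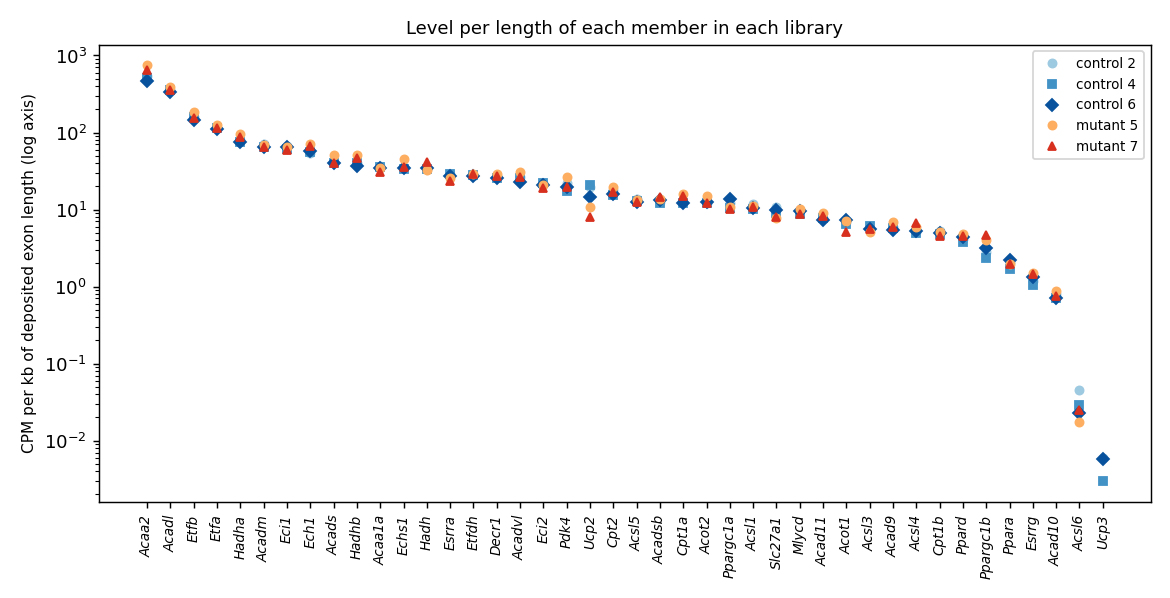
CPM per kb of deposited exon length (y axis, log scale) for the 42 members in order of their control mean (x axis), one symbol per library. Levels span from Acaa2 (509.6 in controls) to Ucp3 (0.0049), whose mutant values of 0 cannot be drawn.

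The RefSeq windows from 250 bases before to 50 after each start site were searched on both strands for letters of known elements. Windows were matched for 37 of 42 members, 45 windows in all beside 32851 over all genes. Cpt1b, Acad9, Acaa2, Decr1 and Ppargc1b had no matched window. The nuclear receptor half-site AGGTCA was in 6 of 45 member windows (13.3%), those of Acadm, Acadvl, Acsl6, Cpt1a, Echs1 and Ucp3, and in 16.3% of all windows. The estrogen-related receptor element TNAAGGTCA, which contains the half-site, was in the window of Acsl6 only (2.22% of member windows, 1.28% of all). The PPAR element, a direct repeat of the half-site with 1 base between the copies, was in 0 member windows and in 0.0396% of all.

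The NKX2-5 element TCAAGTG was in the Ucp3 window only, and TTAAGTG in the Acsl6 window only, while 3.06% and 2.41% of all windows held them. Neither gene was above 0.797 CPM in any library. A match says only that the letters are present, and no match only that they are not in this window. Of the called genes with a window, Cpt1a held the half-site and Ech1 held none of the 5 motifs.

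Around the members, 81 other genes of lipid and ketone oxidation and their control were found in the table, and 77 were tested. Of these 2 rose and 0 fell (2.60% and 0% beside 3.02% and 3.57% of all genes), with a median log2 fold change of -0.01. At an unadjusted p under 0.05 there were 10 on the higher and 8 on the lower side (10.5% and 10.2% of all genes). DESeq2 called 6 and 2 (5.39% and 6.02% of all genes) and limma-voom 1 and 0.

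Oxct1, the enzyme that commits ketone bodies to use as fuel, stood at 379, 380.5 and 347 CPM in the controls and at 517 and 509.9 CPM in the mutants. The mutants were close together and well above all controls (log2 fold change 0.48 ± 0.07, edgeR adjusted p = 0.0075), and without any 1 control the adjusted p was 0.029 to 0.035. Its log2 fold change was 0.47 without mutant 5 and 0.48 without mutant 7. Mut, the methylmalonyl-CoA mutase that handles the end product of odd chains, stood at 91.9, 82.2 and 80.4 CPM in the controls and at 102 and 107 CPM in the mutants (0.30 ± 0.07, adjusted p = 0.049). Its adjusted p was 0.051 without control 2, 0.19 without control 4, 0.14 without control 6 and 0.14 without mutant 7. None of 15 peroxisomal genes passed, with a median of -0.05 and both mutants below all controls for 7 of them (46.7%, beside 19.2% of all genes).

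The next smallest p-values there did not pass. Acss1, a mitochondrial acetyl-CoA synthetase, had a log2 fold change of -0.66 ± 0.17 (edgeR adjusted p = 0.054). Prkab2, a subunit of AMP-activated kinase, had 0.31 ± 0.09 (0.068), while Prkab1, another of its subunits, had -0.27 ± 0.08 (0.093). Pparg, of the fat cell receptor PPARγ, had 0.62 ± 0.18 (0.084) at 2.07 to 3.81 CPM, and Pcca, a subunit of propionyl-CoA carboxylase, had 0.25 ± 0.08 (0.092).

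Mitochondrial genes outside fatty acid oxidation also had mostly higher values in the mutants. For 18 genes of the citrate cycle, respiratory chain, import and outer membrane, all 18 log2 fold changes were above 0 (median 0.21), beside 51.3% of all tested genes. Both mutants lay above all controls for 12 (66.7%), beside 18.6% of all tested genes. Mutant 5 lay above mutant 7 for 16 (88.9%), beside 51.7% of all tested genes. With library totals alone 15 of 18 were above 0, without control 6 it was 16, and without mutant 5 it was 14. The summed level ran from 14712 to 15747 CPM in the controls and from 16635 to 18028 CPM in the mutants. Of the 18 genes 2 rose (11.1%, beside 3.02% of all genes), Sdhb of respiratory complex II (0.37 ± 0.08, edgeR adjusted p = 0.036) and the chaperonin Hspd1 (0.37 ± 0.07, 0.017). In edgeR 0 fell, and at an unadjusted p under 0.05 there were 11 on the higher and 0 on the lower side (10.5% and 10.2% of all genes). Sdhb lost its call without control 2 (0.14), control 4 (0.063), control 6 (0.10) or mutant 5 (0.074), and Hspd1 without control 2 (0.085), control 4 (0.059) or control 6 (0.059).

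Cell type markers also differed in summed level, and their part in the members' values, like that of the mitochondrial genes, was not tested. The 8 myocyte markers summed to 39777 to 43241 CPM in the controls and to 44959 and 48602 CPM in the mutants, with 0 of 8 called by edgeR. At an unadjusted p under 0.05 there were 2, both higher (10.5% of all genes lay there). Both mutants lay above all controls for 3 (37.5%, beside 18.6% of all tested genes), and the groups overlapped for 5. Tnni3, Ttn and Pln had negative log2 fold changes (-0.10, -0.04 and -0.07), and the other 5 were positive. The 5 fibroblast markers summed to 4975 to 5909 CPM in the controls and to 3855 and 3904 CPM in the mutants, and Dcn and Lum fell. The 3 smooth muscle markers summed to 512 to 582 CPM in the controls and to 1407 and 1894 CPM in the mutants, mostly Acta2, which rose. The 5 endothelial markers summed to 1025 to 1088 CPM in the controls and to 1199 and 1470.3 CPM in the mutants, and Tie1 rose, though not without control 2 (adjusted p 0.17), control 4 (0.13), control 6 (0.078) or mutant 7 (0.11).

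Brown fat is rich in these enzymes, and markers of fat tissue were low. The 10 adipocyte markers summed to 8.40 to 9.87 CPM in the controls and to 12.7 CPM in each mutant. Most of it was Cidea, which rose (log2 fold change 0.57 ± 0.12, edgeR adjusted p = 0.026), though not without control 4 (0.10), control 6 (0.084) or mutant 7 (0.068). Cfd was at 0 in every library, and Ucp1, Elovl3, Adipoq, Plin1, Lep and Retn were at or under 0.119 CPM. Adrb3 stood at 0.151 to 0.357 CPM in the controls and higher, at 0.564 and 0.498 CPM, in the mutants (0.93 ± 0.43, edgeR adjusted p = 0.27). Dio2 stood at 1.14 to 1.53 CPM in the controls and lower, at 1.09 and 1.1 CPM, in the mutants (-0.25 ± 0.25, adjusted p = 0.63). The 5 hepatocyte markers summed to 0.967 to 3.00 CPM and the 5 thymocyte markers to 0.185 to 0.829 CPM over all libraries. The 4 erythroid markers summed to 675 to 842 CPM in the controls and to 999 and 1028 CPM in the mutants, where Hba-a1 rose, though not without control 2 (0.081) or control 4 (0.074). The 4 macrophage markers summed to 107 to 126 CPM in the controls and to 119 and 136 CPM in the mutants, where Emr1 rose, a call lost with any 1 library left out (adjusted p 0.064 to 0.17). Of the 6 atrial markers 1 fell (16.7%, beside 3.57% of all tested genes), and the median of the list was -0.10. It was Nppa, the atrial natriuretic peptide and a known NKX2-5 target (-2.58 ± 0.18, edgeR adjusted p = 9.6e-04). Sln, Stard10, Myl7 and Myl4 had log2 fold changes of -0.17, -0.16, -0.05 and -0.01. Kcna5 had 0.14, and none of these others passed.

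Markers of other striated muscle had negative median values, and their part in the members' values was not tested. Of 8 skeletal muscle markers 7 were tested, with a median log2 fold change of -0.12. Both mutants lay below all controls for 3 (42.9%, beside 19.2% of all tested genes), and 2 were called lower (28.6%, beside 3.57%). The parvalbumin gene Pvalb (-1.80 ± 0.15, edgeR adjusted p = 6.9e-04) and the α-actinin gene Actn3 (-0.97 ± 0.19, 0.02) fell, the call of Actn3 being lost without control 2 (0.069), control 4 (0.084) or mutant 7 (0.072), and Myod1 was at 0 in every library. The skeletal myosins Myh1, Myh2 and Myh4 had log2 fold changes of 0.44, 0.01 and -0.12, with overlapping groups, and none passed. Mylpf had -0.53, with both mutants below all controls, and Ckm had -0.10, and neither passed. The summed skeletal level was 2187 to 2327 CPM in the controls and 1981 and 2212 CPM in the mutants, nearly all of it Ckm, which heart also expresses. The 4 ventricular markers had a median of -1.62 with 0 called by edgeR. At an unadjusted p under 0.05 there were 2, 1 in each direction (10.5% higher and 10.2% lower over all genes). Myl2 and Irx4 were highest in control 6, and without it their log2 fold changes were -0.53 and -0.67. Myl3 stood at 124, 67.2 and 145 CPM in the controls and at 22.3 and 15.4 CPM in the mutants, below every control. Its log2 fold change was -2.57 ± 0.47 (edgeR adjusted p = 0.076), and -2.34 without control 6. Myh7 went the other way, at 0.24 ± 0.11. The 4 markers summed to 1930.1 to 2507 CPM in the controls and to 2282 and 2656 CPM in the mutants, mostly Myh7.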

How the data were processed

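For each library the authors deposited raw read counts by gene, with RPKM pooled to 1 value per group, a log2 ratio, and p-values with adjusted p-values, per the file headers. Per the submitters' processing notes the build was mm9 and the tools TopHat2 2.0.4, HTSeq 0.5.4p3 and DESeq; their roles, and whether counting used strand, are not given in the sources used here. The counter's 5 entries that name no gene were left out; no_feature was 3.97% to 6.03% of all counts, and ambiguous 2.31% to 3.18%.

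The count model was edgeR 4.0.16 (R 4.3.3): filterByExpr (minimum count 10, total 15), TMM scaling, and the robust two-sided quasi-likelihood test without covariates on all 5 libraries. P-values were adjusted by Benjamini-Hochberg over the 17835 tested genes (threshold 0.05). Log2 fold changes are mutant over control (prior count 0.125), and the SE comes from the F statistic. CPM uses TMM-scaled totals. The fit was also run on simulated counts with the same dispersion for all genes and libraries. That run does not measure how the fit performs at the spread of these libraries. Alternatives were DESeq2 1.42.0, limma-voom (limma 3.58.1), other scalings and filters, and leaving out each library.

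The members and lists were chosen with earlier results of these data known. Values are given for every called member, for a list of central genes whatever their result, and for the next smallest p in a role. Gene sequence overlap (stretches of 50 bases) was taken from GENCODE vM21 transcripts, and promoter windows from RefSeq (GRCm38.p6); no coordinate was converted between builds.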

Additional observations from a re-analysis of the deposited data

How the results depend on the processing

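With each library left out in turn, members called higher numbered 0 to 7, members called lower 0 to 1, and all genes called 529 to 1714 (1174 with all libraries). The fits without a mutant library held only 1 mutant library, so their calls do not measure spread between mutants. None of the 4 called members passed without control 4, while their log2 fold changes stayed between 0.25 and 0.74 in all 11 alternatives. DESeq2 called 1956 genes, 7 members higher and 2 lower. Members called lower numbered 1 each with at least 1 CPM in 2 libraries, with library totals alone and with no filter. Other pathway genes called higher numbered 6 with DESeq2, 1 each with DESeq2 size factors in edgeR, library totals alone and limma-voom, and 1 to 3 with a library left out. Those called lower numbered 2 with DESeq2, 1 each with library totals alone and no filter, and 0 to 2 with a library left out. With library totals alone, 449 genes were called higher and 799 lower, in place of 538 and 636, and the median log2 fold change of all genes was -0.03. The cause of these shifts was not tested.

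With 3 against 2 libraries, members with log2 fold changes of about 0.3 lay near the threshold, so a member that did not pass is not shown to be unchanged. No paired analysis was possible because the groups share no replicate number.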
